A study of Mus musculus with 12 samples.

Results

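Matrigel culture was set against basal culture in bipotential mouse embryonic liver (BMEL) cells, using every array that the labels place in either culture: 8 of the 12 arrays of the series, 4 for each culture. BMEL cells are lines from embryonic liver that can take on features of hepatocytes or of bile duct cells. Both lines, 9A1 and 14B3, were independently isolated from livers at 14 days post coitum of the cross CBA/J x C57Bl/6J. Each of basal 9A1, basal 14B3, Matrigel 9A1 and Matrigel 14B3 had 2 arrays. The labels give Matrigel cultures 10 days, but 5 days for Matrigel 14B3 replicate 1, and give basal cultures no time. The gel and the time spent in it therefore cannot be told apart, and the labels name no genetic alteration in any group. The other 4 arrays, from floating aggregates at 5 days, entered the fit only for the estimate of spread and for a few values given beside the Matrigel ones.

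Matrigel is a gel of basement membrane proteins, mainly laminin, collagen IV and nidogen, drawn from a mouse sarcoma. Epithelial cells bind such a matrix through integrins and can form polarised, hollow structures in it. Hepatocytes secrete plasma proteins and lipoproteins, take up and modify lipids, drugs and bile acids, and are coupled by the connexin Gjb1. The fetal liver and the gut both arise from endoderm, and their epithelia share many genes for lipid transport, detoxification and the apical surface. Nuclear factors of the HNF1 and HNF4 families drive many of those genes, while CCAAT boxes and the cell cycle homology region are common elements of genes that act in mitosis.

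Promoter sequences are shown for 4 genes that rose strongly in Matrigel and 3 mitosis genes that fell, to show the motif matches counted below. Each is the 150 bases before the start site, from RefSeq on GRCm38.p6, printed 5′ to 3′ on the gene's strand. In the first 4, capitals mark matches on either strand to GTTAAT (an HNF1 element) or CAAAGTNCA (an HNF4 site), and in the last 3 matches to TTTGAA (the cell cycle homology region) or CCAAT.
Fabp1, chr6:71199729-71199878, strand plus: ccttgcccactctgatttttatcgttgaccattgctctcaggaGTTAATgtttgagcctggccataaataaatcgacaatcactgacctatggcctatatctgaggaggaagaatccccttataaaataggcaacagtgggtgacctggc
Apoc2, chr7:19677942-19678091, strand minus: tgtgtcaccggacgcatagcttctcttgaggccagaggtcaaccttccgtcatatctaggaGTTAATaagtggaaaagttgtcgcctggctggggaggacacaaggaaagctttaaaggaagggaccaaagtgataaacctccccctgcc
Cyp2d26, chr15:82794246-82794395, strand minus: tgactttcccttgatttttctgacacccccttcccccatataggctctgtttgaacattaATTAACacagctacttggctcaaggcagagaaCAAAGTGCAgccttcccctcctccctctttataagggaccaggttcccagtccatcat
Fabp2, chr3:122894922-122895071, strand plus: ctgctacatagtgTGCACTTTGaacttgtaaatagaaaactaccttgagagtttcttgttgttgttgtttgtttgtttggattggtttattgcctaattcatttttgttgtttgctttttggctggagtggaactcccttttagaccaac
Cdc20, chr4:118437344-118437493, strand minus: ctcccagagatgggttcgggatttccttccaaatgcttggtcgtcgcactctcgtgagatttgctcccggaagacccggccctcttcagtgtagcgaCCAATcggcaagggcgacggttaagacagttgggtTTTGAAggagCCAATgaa
Cdk1, chr10:69352913-69353062, strand minus: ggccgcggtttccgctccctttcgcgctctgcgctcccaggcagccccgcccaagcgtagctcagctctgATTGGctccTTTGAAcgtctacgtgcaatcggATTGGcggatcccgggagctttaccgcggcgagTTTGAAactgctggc
Ube2c, chr2:164769779-164769928, strand plus: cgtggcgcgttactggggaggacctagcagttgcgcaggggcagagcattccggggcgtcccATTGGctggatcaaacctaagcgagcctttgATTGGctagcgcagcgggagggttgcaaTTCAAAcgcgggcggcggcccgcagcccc

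Of the 12393 genes tested 9882 had a promoter in that table, including 58 of the 70 genes that were called and at least 8-fold higher in Matrigel. GTTAAT lay in 2.49% of all promoters and in 11 of those 58 (19%). CAAAGTNCA lay in 0.779% of all and in 5 of the 58 (8.62%). In the mitosis list 11 of 12 promoters held CCAAT (91.7%, against 27.7% of all) and 6 of 12 held TTTGAA (50%, against 5.97%). In the DNA replication list 7 of 13 held CCAAT (53.8%) and 1 of 13 TTTGAA (7.69%). TTTGAA also lay in 11 of the 58 (19%), and the reverse of CAAAGTNCA followed by AA contains it, so those motifs can overlap. Cyp2d26 held an HNF1 element from base -90 and an HNF4 site from base -58, counted from the start site. Cdk1 held both CCAAT and TTTGAA, each at a pair of positions. A match is only a run of letters and was not tested for binding. The 8-fold group was chosen by its values in these arrays.

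Values are signal intensities for 12393 genes, each read from its brightest probe set, with an array median of 268 to 281. A gene is called when limma's adjusted p (Benjamini-Hochberg over all genes) for the change averaged over the lines is below 0.05, and each change compares 4 Matrigel with 4 basal arrays. Its standard error (SE) comes from the fit and takes in the spread of the aggregate arrays too. Duplicate arrays of a group differed by a median of 0.137 to 0.23 log2 units. The labels name them biological replicates but do not describe separate cultures, so the p-values cover no more than the spread among these arrays, and that may be technical. As a loose guide to background, 23 genes of retina, lens, sperm, pituitary and skeletal muscle had mean intensities of 19.4 to 476 and limma called 0 of them (0 also at an unadjusted p below 0.05). Where the lower of the compared levels lies in that range, the change may be understated. Hnf4a, a factor of liver and gut, and the epithelial keratins Krt8, Krt18 and Krt19 had intensities of 2561 or more on each of the 8 arrays. The liver marker Alb, in contrast, measured 209 to 350 on the basal arrays, within the background guide. Over all genes 14.1% were called higher and 14.3% lower, and the marker counts here are read against those shares. Haematopoietic markers had 2 of 12 members higher (16.7%, near that share), Cd68 and Csf1r, the latter with 1.06 in 9A1 and 0.14 in 14B3. Their summed intensities were 2322 to 2785 in basal and 2548 to 3634 in Matrigel arrays. Ptprc, their pan-leukocyte marker, was at a log2 change of 0.25 (adjusted p = 0.266). Endothelial markers had 1 of 15 higher (Cdh5), with sums of 2926 to 3594 and 2675 to 3919. Stellate and mesothelial markers had 1 of 13 lower (Upk3b), with sums of 5126 to 5649 and 4034 to 6810. The Cd68 call ended without Matrigel_14B3 replicate 2, with an adjusted p of up to 0.0505. That of Cdh5 ended without Matrigel_14B3 replicate 2, Matrigel_9A1 replicate 1 or 2, basal_14B3 replicate 1 or basal_9A1 replicate 1, with an adjusted p of up to 0.165. With the replicate block Vwf was called too (adjusted p = 0.0254), and 2 endothelial markers were higher without Matrigel_14B3 replicate 1. That of Upk3b ended without Matrigel_14B3 replicate 1, Matrigel_9A1 replicate 1, basal_14B3 replicate 1 or 2 or basal_9A1 replicate 1 or 2, with an adjusted p of up to 0.167. In such bulk samples fewer cells of a type and less RNA per cell cannot be told apart.

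Moving from basal culture to Matrigel changed 3519 of 12393 genes (28.4%), 1743 higher (14.1%) and 1776 lower (14.3%). The sizes were uneven: 492 genes rose by at least 1 log2 unit (3.97%) and 255 fell by as much (2.06%), 150 rose and 11 fell at least 4-fold, and 70 rose and 4 fell at least 8-fold. The median log2 change over all genes was -0.04. The 4 Matrigel arrays did not overlap the 4 basal arrays for 26.2% of genes, lying above them for 12.6% and below for 13.6%. Counts of list members below are read against 14.1% higher and 14.3% lower. The lists were chosen with earlier results of these data known, so their shares describe the members and are no independent test.

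**Figure D1:**
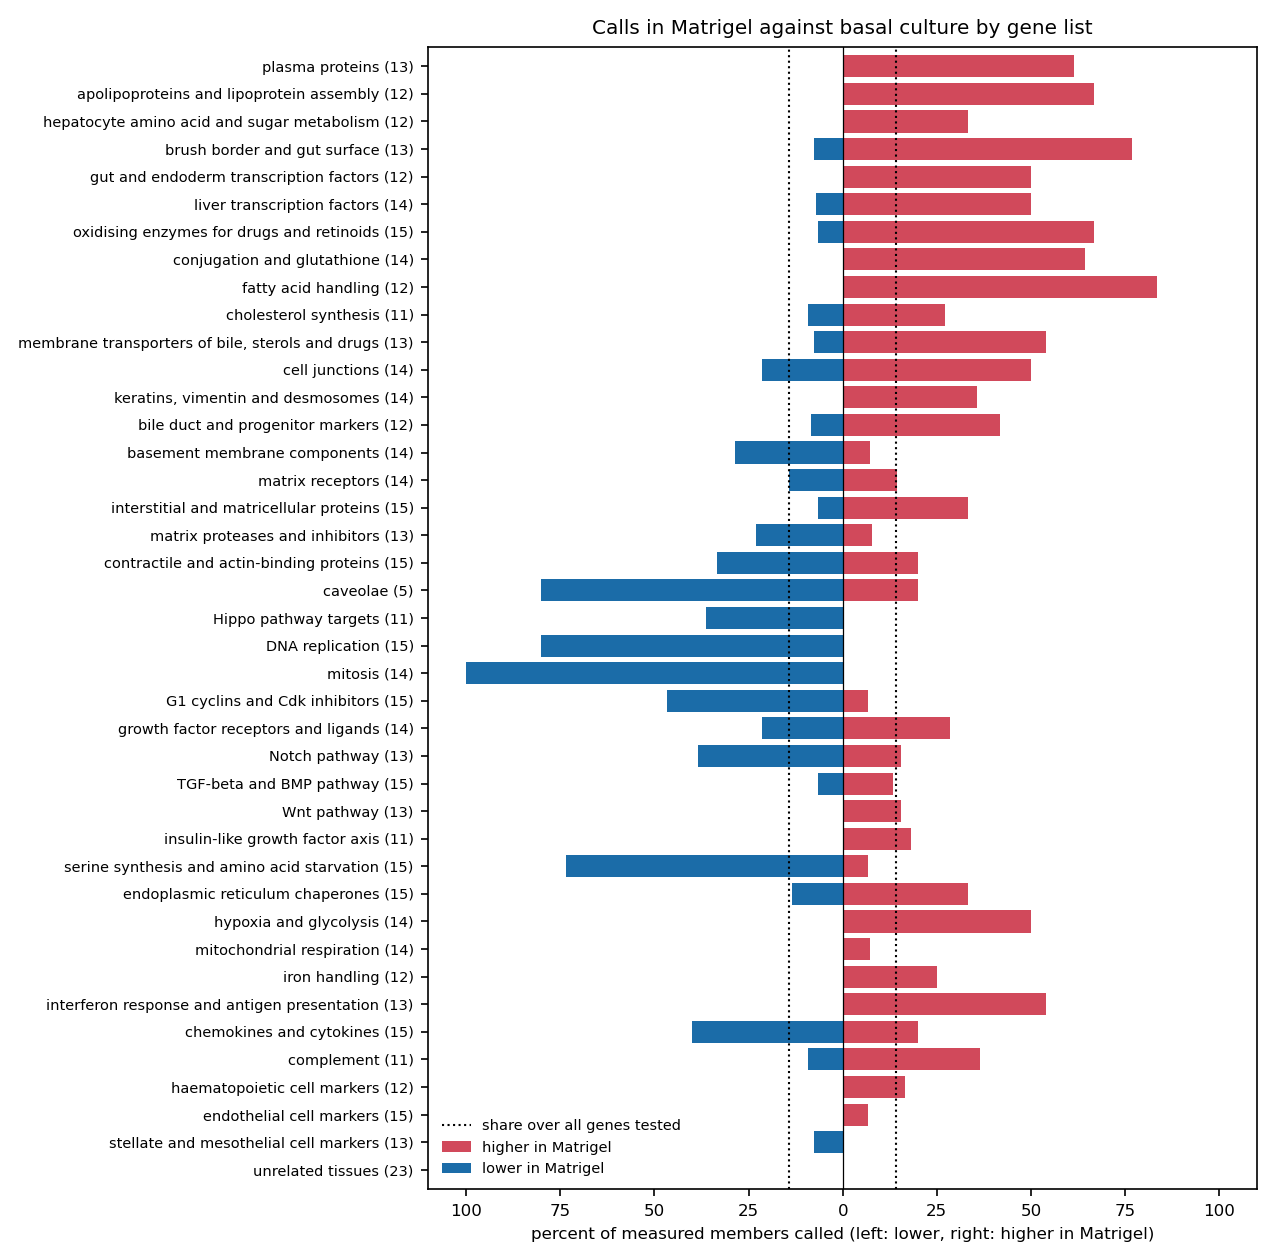
Share of each gene list's measured members (number in brackets) called higher (right, red) or lower (left, blue) in Matrigel than in basal culture, in percent, with dotted lines at the shares over all 12393 genes (14.1% and 14.3%). All 14 mitosis genes lie on the lower side, and 10 of 12 fatty acid genes on the higher side.

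The largest rise was that of Lypd8 (Entrez Gene 70163), a membrane-anchored protein of gut epithelium that keeps bacteria from the cell surface. Its intensity was 77.5 and 77.8 in basal 9A1, 76.2 and 119 in basal 14B3, 11267 and 13457 in Matrigel 9A1, and 9595 and 11497 in Matrigel 14B3. The basal arrays were low, 1 basal 14B3 array a little above the others, and every Matrigel array was far above all of them. Lypd8 rose by 7.05 ± 0.14 log2 units (SE, adjusted p = 1.87e-11), 132-fold. Behind it, the glucuronosyltransferase Ugt2b5 rose 84.1-fold, the fatty acid binding protein Fabp2 75.3-fold and the lipoprotein genes Apoc3 and Apoc2 61.7-fold and 61.0-fold. These 5 began at basal intensities within the background guide, so these folds may be too small. The aggregates held more Lypd8, with a log2 difference of Matrigel minus aggregate of -0.47 (adjusted p = 0.0264).

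**Figure D2:**
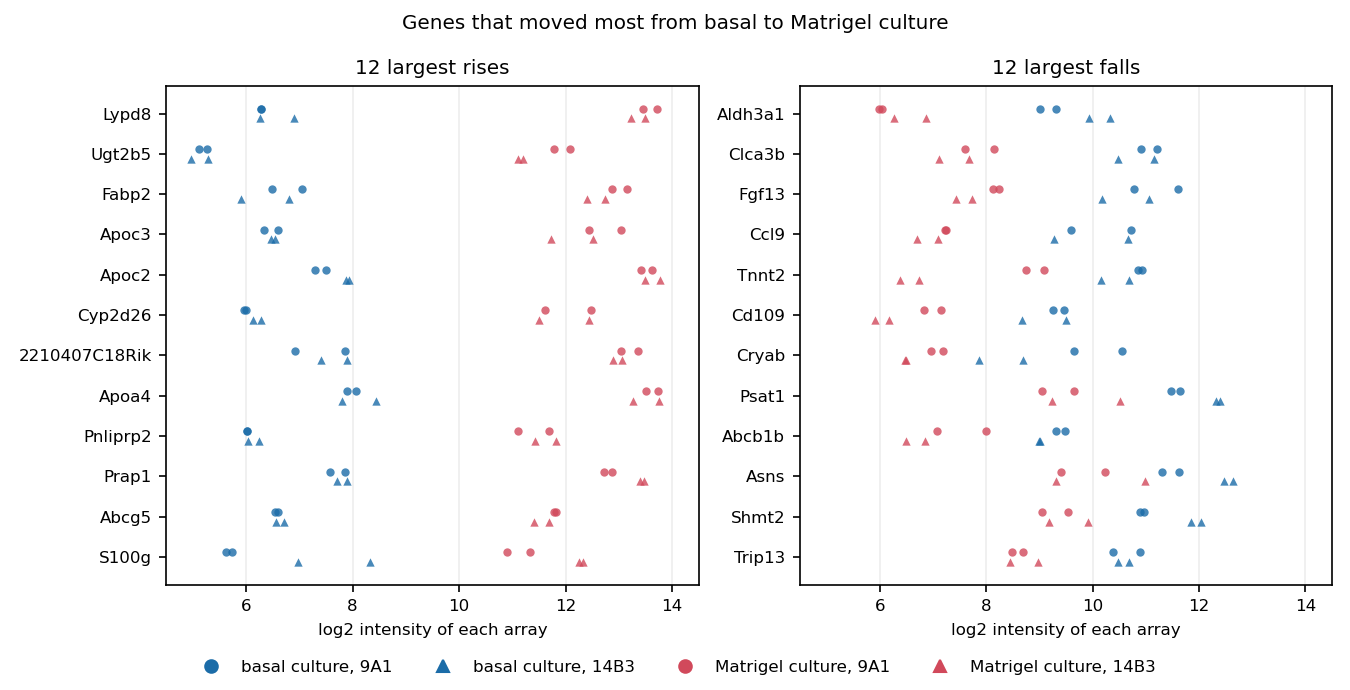
Log2 intensity on each array for the 12 largest rises (left) and 12 largest falls (right), with circles for 9A1, triangles for 14B3, blue for basal and red for Matrigel culture. No gene has overlapping cultures, and Lypd8 spans 76.2 to 119 in basal and 9595 to 13457 in Matrigel arrays in linear intensity.

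Pnliprp2, a pancreatic lipase relative that splits galactolipids and phospholipids (Entrez Gene 18947), was among the 12 largest rises and was lower in the aggregates. Its intensity was 64.4 and 64.2 in basal 9A1, 75.4 and 65.6 in basal 14B3, 3312 and 2193 in Matrigel 9A1, and 3628 and 2760 in Matrigel 14B3. Basal arrays lay in a narrow low band, and the Matrigel arrays of both lines overlapped each other far above it. It rose by 5.44 ± 0.21 log2 units (SE, adjusted p = 5.83e-09), 43.4-fold, and exceeded the aggregates by 3.22 (adjusted p = 2.85e-06) log2 units. Against the aggregates, Matrigel cultures had 13.9% of genes higher and 12.7% lower. Prap1, a proline-rich acidic secreted protein of gut and uterus, measured 232 and 190 in basal 9A1, 237 and 208 in basal 14B3, 6727 and 7465 in Matrigel 9A1, and 10792 and 11354 in Matrigel 14B3. In Matrigel it was higher in 14B3 than in 9A1 on both arrays. It rose 41.0-fold. S100g, a calcium-binding protein of gut epithelium, rose 33.0-fold, from basal intensities of 49 and 52.9 in 9A1 and 125 and 321 in 14B3.

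Most plasma protein genes rose. Of 13 measured members 8 rose (61.5%) and the other 5 had no call, with a median log2 change of 1.40 averaged over lines, 2.07 in 9A1 and 0.72 in 14B3. Albumin (Alb, Entrez Gene 11657), the main carrier protein of plasma, measured 289 and 350 in basal 9A1, 252 and 209 in basal 14B3, 5650 and 6362 in Matrigel 9A1, and 5514 and 6261 in Matrigel 14B3. The 4 Matrigel arrays lay close together, and the 4 basal arrays did too, far below. Alb rose by 4.46 ± 0.43 log2 units (SE, adjusted p = 1.35e-05), 22.0-fold. Its level did not pass the test against the aggregates, with a log2 difference of 0.08 (adjusted p = 0.893). Afp, the fetal relative of albumin (Entrez Gene 11576), measured 275 and 239 in basal 9A1, 1477 and 1396 in basal 14B3, 4373 and 6928 in Matrigel 9A1, and 2551 and 2813 in Matrigel 14B3. Basal 14B3 already stood above basal 9A1, whereas in Matrigel the order of the lines was turned. Afp rose by 2.66 ± 0.28 log2 units (SE, adjusted p = 2.77e-05), with 4.42 in 9A1 and 0.90 in 14B3.

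Transthyretin (Ttr), which carries thyroid hormone, measured 389 and 568 in basal 9A1, 554 and 585 in basal 14B3, 3069 and 4147 in Matrigel 9A1, and 3162 and 4694 in Matrigel 14B3, with no overlap between cultures. It rose by 2.84 ± 0.27 log2 units (SE, adjusted p = 1.08e-05). All 3 Ttr probe sets were called higher, at 2.84 to 5.86. The heme carrier Hpx rose by 3.08 ± 0.19 log2 units (SE, adjusted p = 3.67e-07), with 3.78 in 9A1 and 2.39 in 14B3. Ahsg, a fetuin that limits calcification, rose by 1.69 ± 0.42 log2 units (SE, adjusted p = 0.0103). Among the clotting genes the fibrinogen chain Fga rose by 2.40 ± 0.39 log2 units (SE, adjusted p = 0.000656), while the chain Fgb was called at 1.40, the chain Fgg was at 0.27 (adjusted p = 0.412), prothrombin F2 at 0.40 (adjusted p = 0.123) and plasminogen Plg at -0.07 (adjusted p = 0.815). The Fgb call ended without Matrigel_14B3 replicate 1 or 2, Matrigel_9A1 replicate 1 or 2, basal_14B3 replicate 1 or basal_9A1 replicate 1, with an adjusted p of up to 0.159. Fga intensities in Matrigel were 482 and 543 in 9A1 and 89.2 and 111 in 14B3, within the background guide for 14B3. The haptoglobin gene Hp stood at 0.01 (adjusted p = 0.985) and the retinol carrier Rbp4 at -0.41 (adjusted p = 0.188).

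Apolipoprotein genes split into a group that rose steeply and a group with no call. Of 12 genes 8 rose (66.7%) and 4 had no call, with a median log2 change of 1.88. Apoa4, an apolipoprotein of gut lipoproteins (Entrez Gene 11808), measured 237 and 267 in basal 9A1, 222 and 348 in basal 14B3, 11751 and 13651 in Matrigel 9A1, and 9869 and 13798 in Matrigel 14B3. All 8 values separated by culture and hardly by line. Apoa4 rose 46.0-fold, Apoa1, the core protein of high-density lipoprotein, 31.9-fold, and Mttp, which loads lipid onto Apob, 19.9-fold. Apob itself, the structural protein of very low density lipoprotein, rose by 1.53 ± 0.17 log2 units (SE, adjusted p = 3.67e-05). Apoc1 rose by 2.23 ± 0.32 log2 units (SE, adjusted p = 0.000253). The 4 without a call were Apoa2 at 0.22, Apoh at 0.20, Apom at -0.08 and the cholesterol esterifying enzyme Lcat at 0.03 log2 units.

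Genes of the apical and gut surface rose for the most part. Of 13 brush border and gut surface genes 10 rose, 1 fell and 2 had no call, with a median of 1.27 log2 units. Vil1, which bundles actin in microvilli, measured 199 and 299 in basal 9A1, 340 and 853 in basal 14B3, 3294 and 3564 in Matrigel 9A1, and 3540 and 3355 in Matrigel 14B3. The Matrigel arrays were nearly level with each other, and 1 basal 14B3 array stood above the other basal arrays. Vil1 rose by 3.25 ± 0.24 log2 units (SE, adjusted p = 1.37e-06). The mucin Muc13 rose by 3.52 ± 0.13 log2 units (SE, adjusted p = 3.4e-09), the meprin subunit Mep1b rose by 2.34 ± 0.15 log2 units (SE, adjusted p = 4.26e-07) and the peptide transporter Slc15a1 rose by 2.14 ± 0.23 log2 units (SE, adjusted p = 3.26e-05). The peptidase Anpep rose by 1.27 ± 0.22 log2 units (SE, adjusted p = 0.000991), but lay below the aggregates by a log2 difference of -2.88 (adjusted p = 6.07e-06). Against the aggregates 12 of the 13 were lower in Matrigel. The lactase gene Lct had no call at 0.71 (adjusted p = 0.0684).

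Clca3b, a calcium-activated chloride channel regulator of mucosal epithelia, went the other way. Its intensity was 2359 and 1915 in basal 9A1, 2272 and 1432 in basal 14B3, 285 and 194 in Matrigel 9A1, and 205 and 138 in Matrigel 14B3. Every Matrigel array fell well under every basal array. Clca3b fell by 3.30 ± 0.19 log2 units (SE, adjusted p = 2.19e-07), 9.84-fold lower.

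Of 12 genes for amino acid and sugar metabolism in hepatocytes 4 rose (33.3%) and 8 had no call, with a median of 0.25. The urea cycle entry enzyme Cps1 measured 167 and 190 in basal 9A1, 139 and 190 in basal 14B3, 1345 and 1475 in Matrigel 9A1, and 366 and 319 in Matrigel 14B3. It was highest in Matrigel 9A1, with a smaller step in 14B3. It rose by 2.03 ± 0.16 log2 units (SE, adjusted p = 2.99e-06), with 2.98 in 9A1 and 1.07 in 14B3. G6pc, which releases glucose from its phosphate, rose by 1.47 ± 0.33 log2 units (SE, adjusted p = 0.00493), with 2.06 in 9A1 and 0.88 in 14B3. The gluconeogenic enzyme Fbp1 rose by 0.65 ± 0.15 log2 units (SE, adjusted p = 0.00748), with 1.18 in 9A1 and 0.12 in 14B3. Arg1, the last urea cycle enzyme, rose by 0.86 ± 0.21 log2 units (SE, adjusted p = 0.00936), but its change was -0.12 in 9A1 and 1.84 in 14B3. The gluconeogenic enzyme Pck1 was at -0.04, the tyrosine aminotransferase Tat at -0.06 and the ornithine transcarbamylase Otc at 0.30, all without a call.

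Transcription factors of liver and gut had modest median changes. Of 14 liver factors 7 rose, 1 fell and 6 had no call, with a median log2 change of 0.31. Hnf4a, a nuclear receptor that governs hepatocyte and gut genes, measured 2561 and 3627 in basal 9A1, 3451 and 3325 in basal 14B3, 4379 and 4610 in Matrigel 9A1, and 5091 and 4713 in Matrigel 14B3. It was already high in basal arrays, and all Matrigel arrays lay above them. Hnf4a rose by 0.55 ± 0.11 log2 units (SE, adjusted p = 0.00355). It has 4 probe sets, of which 2 were called higher and 2 had no call, at 0.23 to 0.55. Its paralogue Hnf4g, known mainly from gut, rose by 1.71 ± 0.16 log2 units (SE, adjusted p = 8.91e-06), from 118 to 166 in basal to 411 to 491 in Matrigel arrays. The xenobiotic receptor Nr1i2 rose by 1.14 ± 0.14 log2 units (SE, adjusted p = 9.7e-05). The bile acid receptor Nr1h4 rose by 1.05 ± 0.14 log2 units (SE, adjusted p = 0.000188), with 1.54 in 9A1 and 0.57 in 14B3. Foxa3 rose by 1.20 ± 0.23 log2 units (SE, adjusted p = 0.00204), with 1.63 in 9A1 and 0.78 in 14B3. No call was made for the pioneer factors Foxa1 at -0.01 and Foxa2 at -0.45, Cebpa at -0.02 and Prox1 at 0.02. The 1 fall was that of Cebpb, a factor of the acute phase response, at -0.66. It ended without Matrigel_14B3 replicate 2, Matrigel_9A1 replicate 2, basal_14B3 replicate 1 or 2 or basal_9A1 replicate 1, with an adjusted p of up to 0.107. The count of falls was 2 without aggregate_9A1 replicate 1 or 2. The call of Ppara, a receptor for fatty acids at 0.52, ended without Matrigel_14B3 replicate 2, Matrigel_9A1 replicate 2, basal_14B3 replicate 1 or basal_9A1 replicate 1, with an adjusted p of up to 0.0767.

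Of 12 gut and endoderm factors 6 rose and 6 had no call, with a median of 0.29, 0.01 in 9A1 and 0.47 in 14B3. Sox17 was among the rises, with -0.15 in 9A1 and 2.02 in 14B3. Gata4 rose by 0.95 ± 0.13 log2 units (SE, adjusted p = 0.000175) and Gata6 rose by 0.48 ± 0.09 log2 units (SE, adjusted p = 0.00183). The pancreatic and duodenal factor Pdx1 rose by 0.78 ± 0.15 log2 units (SE, adjusted p = 0.00237). Klf4, a factor of differentiated epithelia, rose by 0.76 ± 0.13 log2 units (SE, adjusted p = 0.000778), with 0.29 in 9A1 and 1.23 in 14B3. The intestinal factors Cdx1 and Cdx2 stood at -0.11 and 0.07 log2 units without a call, and the stomach and foregut factor Sox2 at -0.07. With the replicate block within each line Gata5 (-0.30) was called lower (adjusted p = 0.0361).

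Enzymes that oxidise drugs, alcohols and retinoids rose in most cases. Of 15 genes 10 rose, 1 fell and 4 had no call, with a median log2 change of 1.13. Cyp2d26, a cytochrome P450, measured 62.1 and 63.4 in basal 9A1, 70.3 and 77.9 in basal 14B3, 3149 and 5686 in Matrigel 9A1, and 2897 and 5578 in Matrigel 14B3. In both lines the replicate 2 Matrigel array was the higher of its pair. It rose 60.5-fold. Cyp3a13, a P450 of liver and gut, rose by 3.11 ± 0.18 log2 units (SE, adjusted p = 1.89e-07). Cyp2c29 and Cyp2c55 rose by less, 0.88 and 2.08, and lay under the aggregates by log2 differences of -3.87 (adjusted p = 1.96e-07) and -3.28 (adjusted p = 5.27e-06). Aldh1a1, which makes retinoic acid, measured 589 and 290 in basal 9A1, 53.1 and 110 in basal 14B3, 5053 and 6966 in Matrigel 9A1, and 5190 and 4218 in Matrigel 14B3. Basal 9A1 stood above basal 14B3, and the lines met at a like level in Matrigel. Aldh1a1 rose by 4.89 ± 0.25 log2 units (SE, adjusted p = 5.85e-08), 29.6-fold.

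Aldh3a1, another aldehyde dehydrogenase, gave the largest fall of the 12393 genes. Its intensity was 638 and 519 in basal 9A1, 976 and 1281 in basal 14B3, 65.9 and 63.3 in Matrigel 9A1, and 117 and 77.4 in Matrigel 14B3. All Matrigel arrays lay within the background guide, far below the basal ones. Aldh3a1 fell by 3.35 ± 0.15 log2 units (SE, adjusted p = 2.16e-08), 10.2-fold lower. The alcohol dehydrogenase Adh1 measured 214 and 218 in basal 9A1, 199 and 168 in basal 14B3, 980 and 2186 in Matrigel 9A1, and 10024 and 10559 in Matrigel 14B3, so that Matrigel 14B3 lay far above Matrigel 9A1. Adh1 rose by 4.29 ± 0.24 log2 units (SE, adjusted p = 1.84e-07), with 2.76 in 9A1 and 5.81 in 14B3. The P450 genes Cyp1a1 (0.22), Cyp3a11 (0.44) and Cyp2b10 (-0.11) had no call. Cyp1b1 was at -0.66 (adjusted p = 0.0937), but was called lower with the replicate number as a block (adjusted p = 0.016). The falls of this list then numbered 2, as they did without Matrigel_9A1 replicate 1 or Matrigel_14B3 replicate 1.

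Conjugating enzymes rose alongside. Of 14 genes for conjugation and glutathione 9 rose (64.3%) and 5 had no call, with a median of 0.96. The sulfotransferase Sult1d1 measured 83.8 and 91.5 in basal 9A1, 76.3 and 73.1 in basal 14B3, 2482 and 2224 in Matrigel 9A1, and 2321 and 2553 in Matrigel 14B3. The 4 Matrigel values nearly coincided. Sult1d1 rose 29.6-fold, and the glutathione transferases Gsta2 and Gsta3 10.7-fold and 9.41-fold. The other Gsta3 probe set was called higher too, but at 1.28 log2 units. Mgst1, the membrane-bound transferase, rose by 1.02 ± 0.16 log2 units (SE, adjusted p = 0.000615). The general antioxidant genes Nqo1 (0.33), Gclc (0.28), Gclm (0.15) and Hmox1 (0.29) had no call. Ugt2b, Cyp2c, Cyp2d and Gsta genes have close relatives, whose signal cannot be told apart from theirs here.

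Genes that bind, store or burn fatty acids rose: 10 of 12 rose (83.3%) and 2 had no call, with a median of 1.20. Fabp1, the fatty acid carrier of liver and gut (Entrez Gene 14080), measured 106 and 138 in basal 9A1, 570 and 1541 in basal 14B3, 9726 and 13044 in Matrigel 9A1, and 9105 and 10770 in Matrigel 14B3. Basal 14B3 stood above basal 9A1, and both lines reached a like level in Matrigel. Fabp1 rose by 4.97 ± 0.25 log2 units (SE, adjusted p = 5.09e-08), with 6.54 in 9A1 and 3.40 in 14B3. Dgat1 and Dgat2, which make triglyceride, rose by 1.53 ± 0.10 log2 units (SE, adjusted p = 4.48e-07) and rose by 2.14 ± 0.20 log2 units (SE, adjusted p = 1.05e-05). Mogat2, the gut enzyme that feeds them, rose by 1.92 ± 0.13 log2 units (SE, adjusted p = 6.13e-07), and Cidec, a lipid droplet protein, rose by 1.93 ± 0.15 log2 units (SE, adjusted p = 2.05e-06). Acadm, which oxidises medium-chain fatty acids, rose by 0.83 ± 0.11 log2 units (SE, adjusted p = 0.000128). Scd1, a desaturase, measured 809 and 1132 in basal 9A1, 1898 and 1985 in basal 14B3, 3889 and 3815 in Matrigel 9A1, and 1287 and 1993 in Matrigel 14B3. Matrigel 9A1 stood above all other arrays, and the change was 2.01 in 9A1 and -0.28 in 14B3. Of the 10 calls that of Plin2 ended without Matrigel_14B3 replicate 1, Matrigel_9A1 replicate 1 or 2, aggregate_14B3 replicate 1 or 2, basal_14B3 replicate 1 or basal_9A1 replicate 1 or 2, with an adjusted p of up to 0.176.

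Cholesterol synthesis genes differed in direction. Of 11 genes 3 rose, 1 fell and 7 had no call, with a median of -0.19 that joins 0.28 in 9A1 with -0.54 in 14B3. Tm7sf2, a sterol reductase, rose by 1.23 ± 0.14 log2 units (SE, adjusted p = 5.76e-05). The isoprenoid enzyme Fdps fell by 0.45 ± 0.11 log2 units (SE, adjusted p = 0.0108), with -0.08 in 9A1 and -0.82 in 14B3. The called rises of Hmgcs1 and Dhcr7 were 0.35 and 0.37. That of Hmgcs1 ended without Matrigel_14B3 replicate 1 or 2, Matrigel_9A1 replicate 1 or 2, basal_14B3 replicate 1 or 2 or basal_9A1 replicate 1, with an adjusted p of up to 0.168, and that of Dhcr7 ended without Matrigel_14B3 replicate 1 or 2, Matrigel_9A1 replicate 2, basal_14B3 replicate 2 or basal_9A1 replicate 1 or 2, with an adjusted p of up to 0.146. Srebf2, the regulator of this pathway, was at -0.42 (adjusted p = 0.0719), and was called lower with the replicate block (adjusted p = 0.0207). The rises numbered 1 without basal_9A1 replicate 1, basal_14B3 replicate 2, Matrigel_9A1 replicate 2 or Matrigel_14B3 replicate 1 or 2. The falls numbered 2 with the block and without Matrigel_9A1 replicate 1 or Matrigel_14B3 replicate 1.

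Export pumps for drugs and sterols rose, and the P-glycoprotein pair moved in opposite directions. Of 13 membrane transporters 7 rose, 1 fell and 5 had no call, with a median of 0.71. Abcb1a, a P-glycoprotein that exports drugs, measured 359 and 490 in basal 9A1, 387 and 613 in basal 14B3, 5049 and 3628 in Matrigel 9A1, and 3725 and 2567 in Matrigel 14B3. Its relative Abcb1b measured 718 and 640 in basal 9A1, 519 and 509 in basal 14B3, 257 and 135 in Matrigel 9A1, and 115 and 90 in Matrigel 14B3. For each of them the cultures did not overlap, with Abcb1a high and Abcb1b low in Matrigel. Abcb1a rose by 3.01 ± 0.19 log2 units (SE, adjusted p = 3.73e-07) and Abcb1b fell by 2.10 ± 0.21 log2 units (SE, adjusted p = 2.05e-05). The genes are close in sequence, so shared signal between their probe sets cannot be told apart. Abcg5 and Abcg8, the subunits of the sterol exporter, rose 33.8-fold and 2.94-fold. The canalicular pump Abcc2 rose by 3.09 ± 0.14 log2 units (SE, adjusted p = 2.16e-08), and the drug exporter Abcg2 rose by 1.08 ± 0.16 log2 units (SE, adjusted p = 0.000376). The bile salt pump Abcb11 (0.00), the phospholipid flippase Abcb4 (-0.11) and the bile acid importers Slc10a1 (-0.04) and Slc10a2 (0.05) had no call.

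Among 12 iron genes 3 rose and 9 had no call, against 5 higher with the replicate number as a block. The iron exporter ferroportin (Slc40a1) measured 524 and 784 in basal 9A1, 462 and 734 in basal 14B3, 4673 and 6796 in Matrigel 9A1, and 4696 and 5658 in Matrigel 14B3. In each pair replicate 2 was the higher, and the cultures were far apart. Slc40a1 rose by 3.14 ± 0.18 log2 units (SE, adjusted p = 2.19e-07), with 3.14 in 9A1 and 3.15 in 14B3. The ferritin heavy chain Fth1, which stores iron, rose by 0.68 ± 0.08 log2 units (SE, adjusted p = 8.55e-05). The iron oxidase Heph of gut epithelium measured 26.1 and 25.3 in basal 9A1, 27.4 and 27.9 in basal 14B3, 248 and 213 in Matrigel 9A1, and 38 and 44.7 in Matrigel 14B3, all within the background guide, with Matrigel 9A1 apart from the rest. The iron hormone Hamp was at -0.02 and the transferrin receptor Tfrc at 0.23, without a call. With the block Tfr2 (0.31) and Ireb2 (0.26) were called higher (adjusted p = 0.02 and 0.037). Without basal_9A1 replicate 1 the list had 1 fall.

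Junction genes moved in both directions. Of 14 junction genes 7 rose, 3 fell and 4 had no call, with a median of 0.40, and without basal_14B3 replicate 1 the count of rises was 4. Gjb1, the hepatocyte connexin, measured 227 and 257 in basal 9A1, 280 and 323 in basal 14B3, 3153 and 2140 in Matrigel 9A1, and 2579 and 2296 in Matrigel 14B3. Gja1, a connexin of many undifferentiated and mesenchymal cells, measured 5319 and 4883 in basal 9A1, 5251 and 5018 in basal 14B3, 2409 and 1792 in Matrigel 9A1, and 1391 and 846 in Matrigel 14B3. For both genes the cultures were apart on every array, with opposite directions. Gjb1 rose by 3.22 ± 0.13 log2 units (SE, adjusted p = 6.21e-09) and Gja1 fell by 1.77 ± 0.24 log2 units (SE, adjusted p = 0.000175). The tight junction protein Ocln rose by 2.37 ± 0.24 log2 units (SE, adjusted p = 2.28e-05) and the scaffold Tjp3 rose by 1.49 ± 0.17 log2 units (SE, adjusted p = 4.4e-05), while the scaffold Tjp1 fell by 0.64 ± 0.11 log2 units (SE, adjusted p = 0.00109). The claudin Cldn6 of embryonic epithelia measured 82.2 and 96.5 in basal 9A1, 1221 and 738 in basal 14B3, 79.1 and 99.7 in Matrigel 9A1, and 157 and 193 in Matrigel 14B3. It was high in basal 14B3 and much lower in Matrigel 14B3, and its change was 0.00 in 9A1 and -2.45 in 14B3.

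The cadherins gave less certain values. Cdh1, the epithelial cadherin, measured 1181 and 1984 in basal 9A1, 1647 and 2599 in basal 14B3, 2810 and 3116 in Matrigel 9A1, and 2269 and 2303 in Matrigel 14B3, and the cultures overlapped. Its called rise of 0.55 log2 units ended without Matrigel_14B3 replicate 1 or 2, Matrigel_9A1 replicate 1 or 2, basal_14B3 replicate 1 or basal_9A1 replicate 1, with an adjusted p of up to 0.143. Cdh2, the cadherin of mesenchymal cells and hepatocytes, measured 1763 and 917 in basal 9A1, 719 and 432 in basal 14B3, 1007 and 704 in Matrigel 9A1, and 324 and 174 in Matrigel 14B3. Replicate 2 was the lower in each pair. Its log2 change was -0.91 (adjusted p = 0.0655), and with the replicate number as a block its adjusted p was 0.000397, within 0.000397 to 0.532 over all alternatives.

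**Figure D3:**
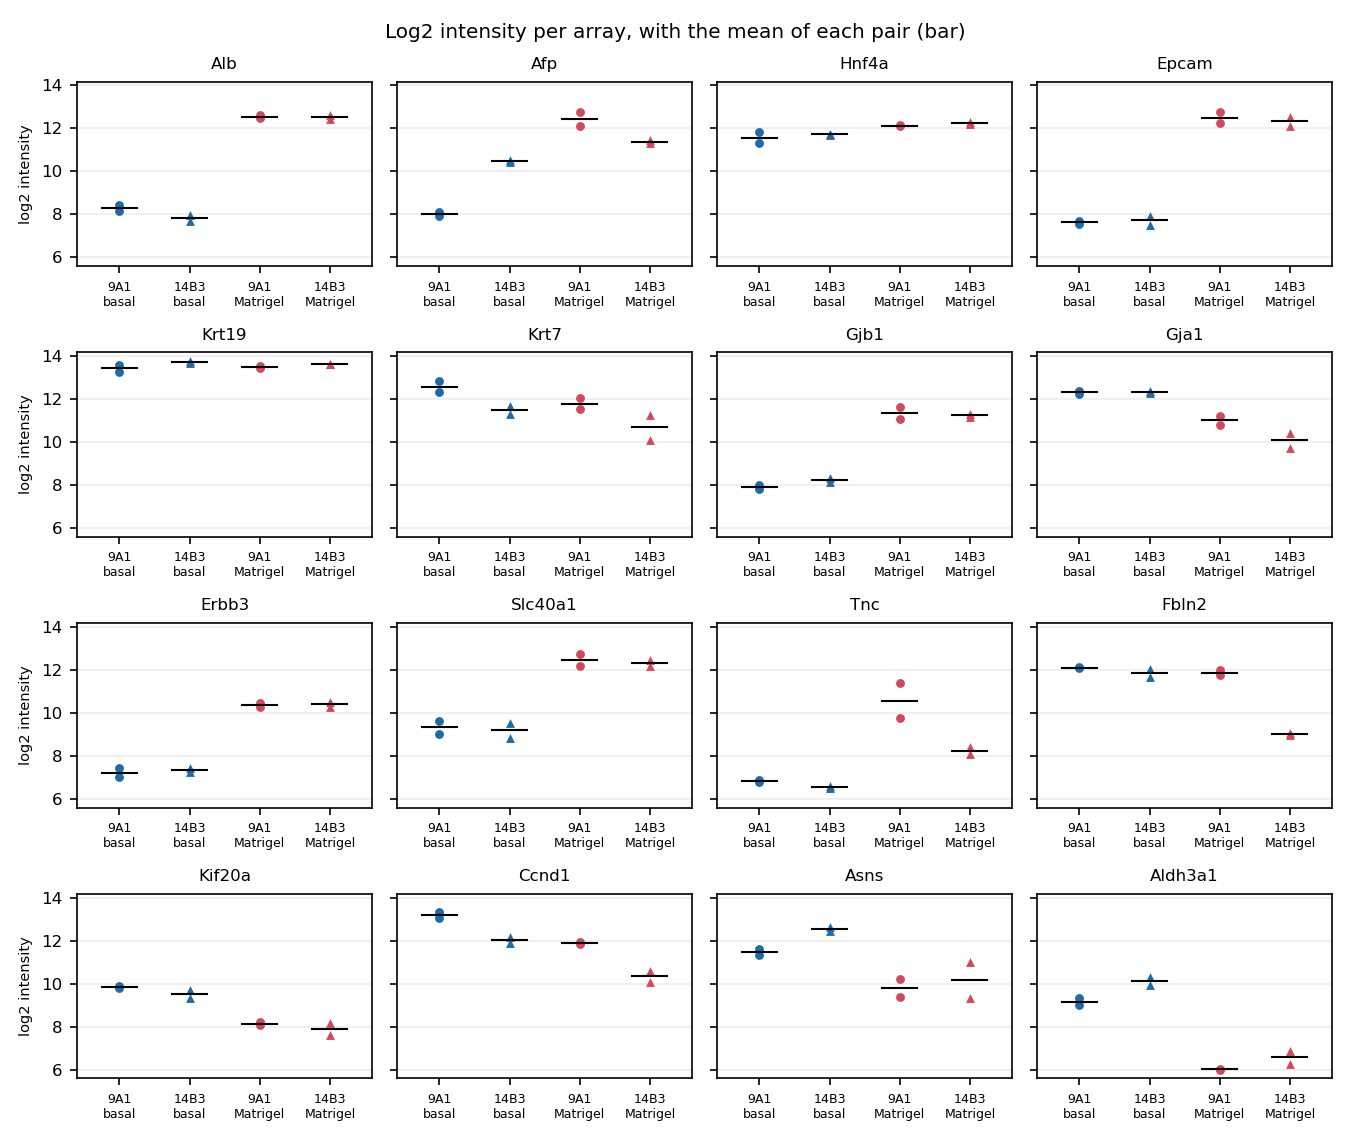
Log2 intensity on each array for 16 genes, with circles for 9A1, triangles for 14B3, blue for basal and red for Matrigel, and a bar at the mean of each pair. Epcam, Gjb1, Erbb3 and Slc40a1 rise alike in both lines, Fbln2 drops far more in 14B3 than in 9A1, and Krt19 overlaps between cultures.

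Krt7, Krt8, Krt18 and Krt19 had no call, while 4 of 5 desmosome genes rose. Of 14 genes of this list 5 rose and 9 had no call, with a median of 0.11. Krt8 measured 13121 and 13342 in basal 9A1, 13960 and 14340 in basal 14B3, 15431 and 14513 in Matrigel 9A1, and 15574 and 14592 in Matrigel 14B3. The Matrigel arrays lay a little above the basal ones, and the log2 change was 0.13 (adjusted p = 0.306). Its partner Krt18 was at -0.19 (adjusted p = 0.286) and Krt19, a keratin of bile duct cells, at -0.03 (adjusted p = 0.896). Krt7, another duct keratin, measured 7247 and 5203 in basal 9A1, 3268 and 2548 in basal 14B3, 4186 and 2959 in Matrigel 9A1, and 2469 and 1095 in Matrigel 14B3. The cultures overlapped, although each line was lower in Matrigel, and the log2 change was -0.81 (adjusted p = 0.0604). With the replicate number as a block the Krt7 fall was called (adjusted p = 0.00776). Krt20, a keratin of gut and urothelium, rose by 1.60 ± 0.12 log2 units (SE, adjusted p = 1.72e-06), and the desmosome genes Dsp and Dsg2 rose by 1.25 ± 0.19 log2 units (SE, adjusted p = 0.000376) and rose by 1.58 ± 0.17 log2 units (SE, adjusted p = 2.82e-05). Vimentin (Vim), the filament of mesenchymal cells, was at -0.42 (adjusted p = 0.0649), and at an adjusted p of 0.0191 with the block. The desmosome gene Jup was at 0.39 (adjusted p = 0.0549), and was called with the block (adjusted p = 0.0156). This list had 6 rises and 2 falls with the block. It had 2 falls without aggregate_9A1 replicate 1 or 2, and 1 without aggregate_14B3 replicate 1 or 2 or Matrigel_14B3 replicate 1.

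Epcam, an adhesion protein of epithelia and of liver progenitors (Entrez Gene 17075), measured 187 and 210 in basal 9A1, 180 and 246 in basal 14B3, 6856 and 4854 in Matrigel 9A1, and 5866 and 4473 in Matrigel 14B3. No Matrigel array came near the basal ones. It rose by 4.74 ± 0.16 log2 units (SE, adjusted p = 2.33e-09), 26.6-fold. Of 12 bile duct and progenitor markers 5 rose, 1 fell and 6 had no call, with a median of 0.13. The chloride channel Cftr rose by 2.21 ± 0.30 log2 units (SE, adjusted p = 0.000204), with 3.03 in 9A1 and 1.38 in 14B3, and the water channel Aqp1 rose by 1.96 ± 0.18 log2 units (SE, adjusted p = 7.51e-06), with 1.28 in 9A1 and 2.64 in 14B3. The other Cftr probe set was at 0.31 without a call. The fetal hepatoblast marker Dlk1 measured 141 and 154 in basal 9A1, 159 and 182 in basal 14B3, 849 and 423 in Matrigel 9A1, and 337 and 214 in Matrigel 14B3. It rose on every Matrigel array, most in 9A1, and rose by 1.34 ± 0.22 log2 units (SE, adjusted p = 0.000696). The tetraspanin Cd9 fell by 0.87 ± 0.21 log2 units (SE, adjusted p = 0.00907). The duct factor Sox9 was at -0.16 (adjusted p = 0.447), Cd24a at -0.30 (adjusted p = 0.63) and the hyaluronan receptor Cd44 at -0.78 (adjusted p = 0.0772), the last with an adjusted p of 0.0322 under the block. The falls of the list numbered 2 with the block and without aggregate_9A1 replicate 1 or 2.

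Among the cells' own genes for basement membrane proteins, the class that makes up Matrigel, 35.7% were called, against 28.4% of all genes. Of 14 basement membrane genes 1 rose, 4 fell and 9 had no call, with a median of -0.08 (2 fell in a fit with equal responses in both lines). The laminin chain Lamb1 measured 749 and 799 in basal 9A1, 767 and 789 in basal 14B3, 725 and 555 in Matrigel 9A1, and 449 and 506 in Matrigel 14B3. Basal values were tight, and the Matrigel values lay under them. Lamb1 fell by 0.50 ± 0.11 log2 units (SE, adjusted p = 0.0053), yet it exceeded the aggregates by 2.59 (adjusted p = 1.96e-07) log2 units. The chain Lama5 fell by 0.53 ± 0.13 log2 units (SE, adjusted p = 0.00788), and Lama3 rose by 0.78 ± 0.10 log2 units (SE, adjusted p = 0.000131). The chain Lamb3 was called lower at -0.89, with 0.52 in 9A1 and -2.3 in 14B3. Its call ended without Matrigel_14B3 replicate 2, Matrigel_9A1 replicate 2, basal_14B3 replicate 1 or 2 or basal_9A1 replicate 1 or 2. Lama1 and Lamc1, chains of the laminin in Matrigel, were at 0.00 and -0.17, and the collagen IV chains Col4a1 and Col4a2 at 0.27 and 0.06, all without a call. The linker nidogen (Nid1) measured 2346 and 2814 in basal 9A1, 666 and 513 in basal 14B3, 2863 and 3157 in Matrigel 9A1, and 257 and 169 in Matrigel 14B3. Basal 9A1 stood well above basal 14B3, and the gap was wider in Matrigel, with changes of 0.23 in 9A1 and -1.49 in 14B3. Against the aggregates 8 of the 14 were higher in Matrigel.

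**Figure D4:**
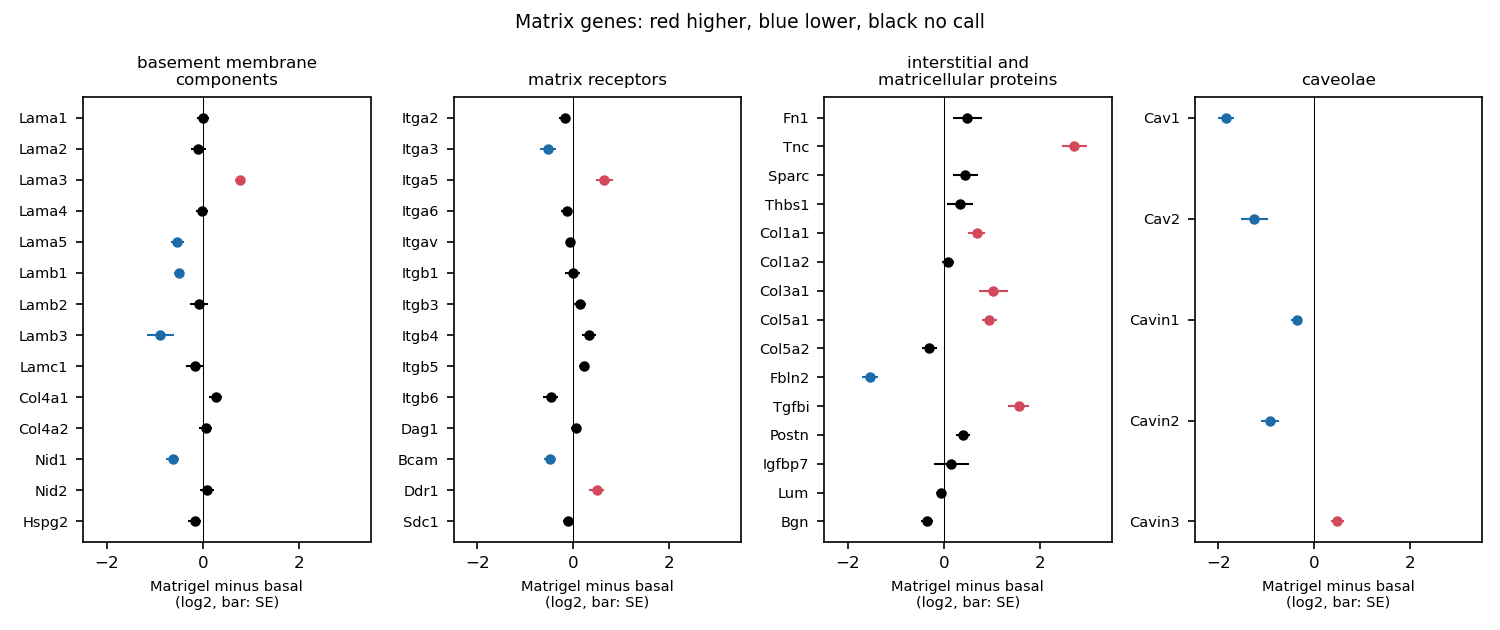
Log2 change from basal to Matrigel culture, averaged over lines, for each measured member of 4 lists, with bars of 1 SE, red for higher, blue for lower and black for no call. Basement membrane genes and receptors all lie within 1 log2 unit of 0, whereas Tnc is at 2.72 and Cav1 at -1.84.

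Matrix receptor genes were called about as often as all genes, 28.6% against 28.4%. Of 14 genes 2 rose, 2 fell and 10 had no call, with a median of -0.04 (3 and 3 with the replicate block, which added Itgb4 and Itgb6). The rises numbered 0 without basal_9A1 replicate 2 or basal_14B3 replicate 2, and the falls 0 without Matrigel_14B3 replicate 2. Itgb1, the integrin chain shared by most laminin and collagen receptors, measured 4439 and 3903 in basal 9A1, 3467 and 3054 in basal 14B3, 5350 and 3602 in Matrigel 9A1, and 3287 and 2809 in Matrigel 14B3. The cultures overlapped, and the log2 change was -0.01 (adjusted p = 0.978). Its laminin-binding partner Itga6 was at -0.14 (adjusted p = 0.45) and dystroglycan (Dag1) at 0.05 (adjusted p = 0.79). The fibronectin receptor chain Itga5 was called higher by 0.65, and this ended without basal_14B3 replicate 2 or basal_9A1 replicate 2, with an adjusted p of up to 0.0546. The laminin receptor chain Itga3 was called lower at -0.53, and this ended without Matrigel_14B3 replicate 2, Matrigel_9A1 replicate 2, basal_14B3 replicate 1 or basal_9A1 replicate 1, with an adjusted p of up to 0.172. The calls of Ddr1, a collagen receptor at 0.49, and Bcam, a laminin receptor at -0.49, ended without Matrigel_14B3 replicate 1, Matrigel_9A1 replicate 1, aggregate_14B3 replicate 1 or 2, basal_14B3 replicate 2 or basal_9A1 replicate 2, with an adjusted p of up to 0.148, and without Matrigel_14B3 replicate 2 or basal_9A1 replicate 2, with an adjusted p of up to 0.0665, in that order.

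Interstitial and matricellular genes gave 5 rises and 1 fall among 15, with a median of 0.40 (3 rises without Matrigel_14B3 replicate 2 and in a fit with equal responses). The falls numbered 2 with the replicate block, which added Bgn (adjusted p = 0.0313), and without basal_9A1 replicate 1 or 2. Tenascin C (Tnc), a matrix protein of remodelling tissue, measured 117 and 109 in basal 9A1, 91.2 and 96.7 in basal 14B3, 2656 and 862 in Matrigel 9A1, and 270 and 338 in Matrigel 14B3. All Matrigel arrays exceeded all basal arrays, with a spread from 270 to 2656 in Matrigel. Tnc rose by 2.72 ± 0.26 log2 units (SE, adjusted p = 1.52e-05). Tgfbi rose by 1.56 ± 0.22 log2 units (SE, adjusted p = 0.000254). The fibulin Fbln2, an elastic fibre protein, measured 4510 and 4324 in basal 9A1, 4219 and 3253 in basal 14B3, 4062 and 3446 in Matrigel 9A1, and 498 and 533 in Matrigel 14B3. Matrigel 14B3 was far below the rest, and Matrigel 9A1 only slightly below basal 9A1, with changes of -0.24 in 9A1 and -2.85 in 14B3. The collagen V chain Col5a1 rose by 0.95, with 1.81 in 9A1 and 0.10 in 14B3. Fibronectin (Fn1) was at 0.49 (adjusted p = 0.301) and Sparc at 0.45 (adjusted p = 0.252). Col1a1 and Col3a1 were called at 0.69 and 1.03, with 1.31 in 9A1 and 0.07 in 14B3, and 2.04 in 9A1 and 0.02 in 14B3, in that order. The Col1a1 call ended without Matrigel_14B3 replicate 2, with an adjusted p of up to 0.0517, and the Col3a1 call ended without Matrigel_14B3 replicate 2, basal_14B3 replicate 1 or 2 or basal_9A1 replicate 1, with an adjusted p of up to 0.0594.

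Among 13 matrix proteases and inhibitors 1 rose, 3 fell and 9 had no call, with a median of -0.22. The collagenase Mmp13 measured 339 and 201 in basal 9A1, 128 and 199 in basal 14B3, 41.8 and 37 in Matrigel 9A1, and 127 and 52.7 in Matrigel 14B3. The Matrigel arrays were lower in both lines, and 14B3 replicate 1 nearly touched the lowest basal array. Mmp13 fell by 1.85 ± 0.26 log2 units (SE, adjusted p = 0.00024), with -2.73 in 9A1 and -0.96 in 14B3 (adjusted p = 0.106 for 14B3 alone). All its values lay within the background guide. The inhibitor Timp2 fell by 1.09 ± 0.15 log2 units (SE, adjusted p = 0.000163), from 3589 to 6612 in basal to 1694 to 3033 in Matrigel arrays. Timp1 was called at -0.61, which ended without Matrigel_9A1 replicate 2, basal_14B3 replicate 1 or basal_9A1 replicate 1, with an adjusted p of up to 0.08. The plasminogen activator Plat rose by 0.41, which ended without basal_14B3 replicate 1, with an adjusted p of up to 0.0553. The gelatinases Mmp2 and Mmp9 were at -0.15 and 0.03 without a call.

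Caveolae genes were all called. Of 5 members 4 fell and 1 rose, with a median of -0.92. Caveolin 1 (Cav1), the coat protein of these membrane pits, measured 5359 and 4162 in basal 9A1, 4671 and 2882 in basal 14B3, 1388 and 1390 in Matrigel 9A1, and 866 and 1102 in Matrigel 14B3. All Matrigel arrays lay below the lowest basal array. Cav1 fell by 1.84 ± 0.16 log2 units (SE, adjusted p = 6.44e-06) and Cav2 fell by 1.25 ± 0.29 log2 units (SE, adjusted p = 0.00657), and Cavin2 fell by 0.92 ± 0.19 log2 units (SE, adjusted p = 0.00286). The other Cav2 probe set was at -0.13 without a call. Cav1 still exceeded the aggregates, by 2.81 (adjusted p = 1.44e-06) log2 units. The calls of Cavin1 at -0.37 and Cavin3 at 0.48 ended without Matrigel_14B3 replicate 2, Matrigel_9A1 replicate 1 or 2, basal_14B3 replicate 1 or 2 or basal_9A1 replicate 2, with an adjusted p of up to 0.116, and without Matrigel_14B3 replicate 2, Matrigel_9A1 replicate 1 or basal_14B3 replicate 2, with an adjusted p of up to 0.0659, in that order.

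Contractile and actin-binding genes went both ways. Of 15 members 3 rose, 5 fell and 7 had no call, with a median of -0.05. The 5 falls became 2 without basal_9A1 replicate 1, basal_14B3 replicate 1, Matrigel_9A1 replicate 2 or Matrigel_14B3 replicate 2, and 3 without Matrigel_9A1 replicate 1 or with equal responses. Tnnt2, a troponin of cardiac muscle, measured 1939 and 1851 in basal 9A1, 1637 and 1145 in basal 14B3, 432 and 546 in Matrigel 9A1, and 82.9 and 107 in Matrigel 14B3. It was lower on all Matrigel arrays, and lowest in 14B3. Tnnt2 fell by 2.91 ± 0.15 log2 units (SE, adjusted p = 8.5e-08). Smooth muscle actin (Acta2) measured 542 and 429 in basal 9A1, 396 and 465 in basal 14B3, 2307 and 1577 in Matrigel 9A1, and 453 and 459 in Matrigel 14B3, so that only Matrigel 9A1 stood apart, with changes of 1.98 in 9A1 and 0.09 in 14B3. Averaged over lines, the other Acta2 probe set was at 0.07 without a call. The actin crosslinker Flna fell by 0.78 ± 0.18 log2 units (SE, adjusted p = 0.00664). Cryab, a small heat shock protein of muscle and lens, measured 1511 and 805 in basal 9A1, 413 and 234 in basal 14B3, 124 and 145 in Matrigel 9A1, and 89.9 and 88.7 in Matrigel 14B3. Replicate 1 was the higher in both basal pairs, and every Matrigel array was lower. Cryab fell by 2.42 ± 0.21 log2 units (SE, adjusted p = 5.27e-06).

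Of 11 targets and parts of the Hippo pathway, which ties growth to cell shape and contact, 4 fell and 7 had no call, with a median of -0.28 (2 falls without basal_9A1 replicate 1 or basal_14B3 replicate 1). Axl, a receptor kinase, measured 5244 and 4318 in basal 9A1, 4011 and 3128 in basal 14B3, 2731 and 2457 in Matrigel 9A1, and 1677 and 942 in Matrigel 14B3, and no array overlapped. It fell by 1.19 ± 0.24 log2 units (SE, adjusted p = 0.00278), while its other probe set was at -0.1 without a call. The widely used target genes Ccn1 and Ccn2 were at 0.04 (adjusted p = 0.943) and -0.09 (adjusted p = 0.903). The phosphatase Ptpn14 fell by 0.56 ± 0.12 log2 units (SE, adjusted p = 0.00336).

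Genes of cell division fell together. All 14 mitosis genes fell, with a median of -1.33 and 100% of members against 14.3% of genes. Kif20a, a kinesin of cytokinesis, measured 962 and 892 in basal 9A1, 838 and 649 in basal 14B3, 271 and 294 in Matrigel 9A1, and 198 and 290 in Matrigel 14B3. Each Matrigel array was far below every basal array. It fell by 1.67 ± 0.19 log2 units (SE, adjusted p = 5.58e-05). Mki67, the usual marker of dividing cells, measured 1783 and 2090 in basal 9A1, 1349 and 1180 in basal 14B3, 667 and 565 in Matrigel 9A1, and 612 and 721 in Matrigel 14B3. Basal 9A1 was the highest pair, and the 4 Matrigel arrays were close together. Mki67 fell by 1.29 ± 0.21 log2 units (SE, adjusted p = 0.000593), yet exceeded the aggregates by 2.68 (adjusted p = 6.3e-06). Cdk1, the kinase that starts mitosis, fell by 1.29 ± 0.16 log2 units (SE, adjusted p = 0.000119), its activator Ccnb2 fell by 1.60 ± 0.15 log2 units (SE, adjusted p = 1.09e-05), the checkpoint kinase Bub1 fell by 1.66 ± 0.13 log2 units (SE, adjusted p = 3.09e-06), and Ube2c, which tags mitotic proteins for destruction, fell by 1.60 ± 0.17 log2 units (SE, adjusted p = 2.82e-05). Cenpe, a kinetochore motor, fell least (-0.47), at intensities of 26.7 to 31.6 in basal and 20.1 to 21.7 in Matrigel arrays.

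DNA replication genes fell too. Of 15 genes 12 fell (80.0%) and 3 had no call, with a median of -1.12. Gins1, a helicase subunit, measured 927 and 748 in basal 9A1, 1192 and 819 in basal 14B3, 297 and 275 in Matrigel 9A1, and 311 and 357 in Matrigel 14B3. No Matrigel array reached any basal array. It fell by 1.56 ± 0.14 log2 units (SE, adjusted p = 7.28e-06). The licensing factor Cdt1 fell by 1.27 ± 0.10 log2 units (SE, adjusted p = 1.78e-06), the nucleotide enzyme Rrm2 fell by 1.47 ± 0.26 log2 units (SE, adjusted p = 0.00129) and the helicase subunit Mcm7 fell by 1.12 ± 0.18 log2 units (SE, adjusted p = 0.000598). Mcm6 was called lower at -0.67, which ended without Matrigel_14B3 replicate 1 or 2, Matrigel_9A1 replicate 2, basal_14B3 replicate 1 or basal_9A1 replicate 1 or 2, with an adjusted p of up to 0.101. Pcna, the polymerase clamp, was at -0.26 (adjusted p = 0.0753), Mcm2 at -0.63 (adjusted p = 0.0916) and Tyms at -0.17 (adjusted p = 0.405). With the replicate block Mcm2 and Pcna were called lower as well (adjusted p = 0.0462 and 0.0389). Trip13, a meiotic and mitotic checkpoint ATPase, was among the 12 largest falls and fell by 1.96 ± 0.17 log2 units (SE, adjusted p = 6.79e-06).

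In the control of G1, 7 of 15 genes fell, 1 rose and 7 had no call, with a median of -0.37. The falls numbered 4 without basal_9A1 replicate 1 or Matrigel_9A1 replicate 2, and 3 without basal_14B3 replicate 1. The rises numbered 2 with the replicate block, which added Cdkn1c (adjusted p = 0.0386), and without basal_14B3 replicate 2 or Matrigel_14B3 replicate 1. Cyclin D1 (Ccnd1), which drives entry into the cycle, measured 10375 and 8638 in basal 9A1, 4606 and 3849 in basal 14B3, 3879 and 3639 in Matrigel 9A1, and 1541 and 1095 in Matrigel 14B3. The lines differed in both cultures, so the cultures overlap, but each line was lower in Matrigel. Ccnd1 fell by 1.51 ± 0.20 log2 units (SE, adjusted p = 0.00016). Cyclin E2 (Ccne2) fell by 1.59 ± 0.21 log2 units (SE, adjusted p = 0.00018) and Myc, a growth regulator, fell by 0.94 ± 0.19 log2 units (SE, adjusted p = 0.00291). Cyclin D3 (Ccnd3) rose by 0.46 ± 0.11 log2 units (SE, adjusted p = 0.00683). The Cdk inhibitors Cdkn1a at 0.00 (adjusted p = 0.992) and Cdkn1b at -0.02 (adjusted p = 0.933) had no call.

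Serine and one-carbon genes, which include many targets of the amino acid starvation factor Atf4, fell. Of 15 members 11 fell, 1 rose and 3 had no call, with a median of -1.09, -0.48 in 9A1 and -1.70 in 14B3. Psat1, the serine aminotransferase, measured 3216 and 2838 in basal 9A1, 5362 and 5090 in basal 14B3, 804 and 530 in Matrigel 9A1, and 1463 and 602 in Matrigel 14B3. Basal 14B3 was highest, and in Matrigel replicate 1 exceeded replicate 2 in both lines. Psat1 fell by 2.34 ± 0.25 log2 units (SE, adjusted p = 3.13e-05). Asparagine synthetase (Asns) measured 2539 and 3166 in basal 9A1, 5683 and 6410 in basal 14B3, 1201 and 675 in Matrigel 9A1, and 2035 and 640 in Matrigel 14B3, with the same ordering by replicate number in Matrigel. Asns fell by 2.03 ± 0.30 log2 units (SE, adjusted p = 0.000306). Phgdh, the first enzyme of serine synthesis, fell by 1.40 ± 0.11 log2 units (SE, adjusted p = 3.36e-06), and the mitochondrial folate enzymes Shmt2 and Mthfd2 fell by 2.02 ± 0.18 log2 units (SE, adjusted p = 6.1e-06) and fell by 1.61 ± 0.10 log2 units (SE, adjusted p = 2.67e-07). The amino acid carrier Slc7a5 fell by 1.76 ± 0.20 log2 units (SE, adjusted p = 5.54e-05). Ddit3, a stress-induced factor, rose (0.75), while Atf4 itself fell by 0.56 ± 0.10 log2 units (SE, adjusted p = 0.0011).

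Endoplasmic reticulum chaperones were mixed, with 5 rises, 2 falls and 8 without a call among 15, and a median of 0.08 (1 fall without basal_9A1 replicate 1 or 2, basal_14B3 replicate 1 or 2, Matrigel_9A1 replicate 1 or Matrigel_14B3 replicate 2). The chaperone cofactor Dnajb9 measured 438 and 479 in basal 9A1, 376 and 611 in basal 14B3, 1614 and 1675 in Matrigel 9A1, and 1630 and 1546 in Matrigel 14B3. The Matrigel arrays nearly coincided, and Dnajb9 rose by 1.79 ± 0.18 log2 units (SE, adjusted p = 1.6e-05). Xbp1, a factor of the unfolded protein response, rose by 0.80 ± 0.15 log2 units (SE, adjusted p = 0.00168). The main chaperone Hspa5 was at 0.20 (adjusted p = 0.316).

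Hypoxia and glycolysis genes gave 7 rises among 14 and 7 without a call, with a median of 0.36. There were 4 rises without basal_9A1 replicate 1 or 2, basal_14B3 replicate 1, Matrigel_9A1 replicate 2 or Matrigel_14B3 replicate 2, and with median centring. Ndrg1, a stress-responsive gene, measured 1107 and 1403 in basal 9A1, 2313 and 3393 in basal 14B3, 4847 and 7884 in Matrigel 9A1, and 6084 and 8283 in Matrigel 14B3. Replicate 2 was the higher in each pair, and no culture overlapped. Ndrg1 rose by 1.83 ± 0.18 log2 units (SE, adjusted p = 1.42e-05). The glucose carrier Slc2a1 rose by 0.99 ± 0.21 log2 units (SE, adjusted p = 0.00375), the kinase Pfkp rose by 1.46 ± 0.21 log2 units (SE, adjusted p = 0.000253) and the mitophagy gene Bnip3 rose by 1.48 ± 0.28 log2 units (SE, adjusted p = 0.00192). Vegfa was at 0.21 (adjusted p = 0.241) and Pdk1 at 0.13 (adjusted p = 0.717). Of 14 genes of mitochondrial respiration 1 rose (Uqcrc2, 0.42) and 13 had no call, with a median of 0.12. With the replicate block 2 rose and 1 fell, adding Sdhb (0.32, adjusted p = 0.0466) and Idh3a (-0.38, adjusted p = 0.0331). There were 2 rises without basal_14B3 replicate 1, and 1 fall without Matrigel_14B3 replicate 1.

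Growth factor genes changed in single members. Of 14 receptors and ligands 4 rose, 3 fell and 7 had no call, with a median of 0.07 (2 rises without basal_9A1 replicate 1, basal_14B3 replicate 1 or Matrigel_9A1 replicate 1). Erbb3, a receptor for neuregulins, measured 128 and 171 in basal 9A1, 151 and 175 in basal 14B3, 1408 and 1224 in Matrigel 9A1, and 1257 and 1438 in Matrigel 14B3. The 4 Matrigel values were close to each other and apart from basal. Erbb3 rose by 3.10 ± 0.13 log2 units (SE, adjusted p = 9.44e-09), and its partner Erbb2 rose by 0.69 ± 0.09 log2 units (SE, adjusted p = 0.000161). The other Erbb3 probe set was called higher, but only at 0.36. The EGF receptor Egfr was at 0.20 (adjusted p = 0.224). Fgf13, an intracellular relative of the fibroblast growth factors, measured 3115 and 1753 in basal 9A1, 2141 and 1152 in basal 14B3, 302 and 279 in Matrigel 9A1, and 213 and 172 in Matrigel 14B3. Replicate 1 was higher in every pair, and all Matrigel arrays were lower than all basal arrays. Fgf13 fell by 3.02 ± 0.21 log2 units (SE, adjusted p = 9.12e-07). The ligand Ereg fell by 0.95 ± 0.21 log2 units (SE, adjusted p = 0.00435). The hepatocyte growth factor receptor Met was called at -0.57, which ended without Matrigel_14B3 replicate 2, Matrigel_9A1 replicate 2 or basal_14B3 replicate 1, with an adjusted p of up to 0.0671.

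In the Notch pathway, which directs bile duct fate, 5 of 13 genes fell, 2 rose and 6 had no call, with a median of -0.26. The target Hes1 measured 1600 and 2100 in basal 9A1, 1626 and 2044 in basal 14B3, 828 and 885 in Matrigel 9A1, and 671 and 702 in Matrigel 14B3. Replicate 2 was the higher in every pair, and the cultures were apart. Hes1 fell by 1.25 ± 0.13 log2 units (SE, adjusted p = 3.16e-05). The receptor Notch1 fell by 0.89 ± 0.13 log2 units (SE, adjusted p = 0.000355) and the ligand Jag1 fell by 0.93 ± 0.17 log2 units (SE, adjusted p = 0.00151), with -0.29 in 9A1 and -1.58 in 14B3. Numb, an inhibitor of the pathway, rose by 0.92 ± 0.12 log2 units (SE, adjusted p = 0.000146), and the ligand Dll1 rose by 0.67 ± 0.12 log2 units (SE, adjusted p = 0.00111). Notch2, the receptor tied to duct formation, was at -0.26 (adjusted p = 0.393).

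TGF-beta and BMP genes had 2 rises and 1 fall among 15, with a median of 0.04. The rises numbered 1 without basal_9A1 replicate 1, basal_14B3 replicate 1 or 2, Matrigel_9A1 replicate 1 or Matrigel_14B3 replicate 2. The falls numbered 2 without aggregate_9A1 replicate 1 or 2 and with the replicate block, which added the receptor Tgfbr2 (-0.38, adjusted p = 0.00463). The ligand Bmp2 measured 106 and 107 in basal 9A1, 62.6 and 72.9 in basal 14B3, 273 and 216 in Matrigel 9A1, and 464 and 336 in Matrigel 14B3 and rose by 1.87 ± 0.19 log2 units (SE, adjusted p = 1.76e-05). Basal 9A1 stood above basal 14B3, and in Matrigel that order was turned. The BMP target Id1 fell by 0.56 ± 0.12 log2 units (SE, adjusted p = 0.00393). Of 13 Wnt genes 2 rose, Wnt5a (1.54) and Wnt4 (0.67), with a median of 0.01, and the target Axin2 was at -0.24 (adjusted p = 0.136). Without Matrigel_9A1 replicate 2, and with a replicate block shared by the lines, 1 Wnt gene was lower. Of 11 genes of the insulin-like growth factor axis 2 rose, with a median of 0.12. The fetal growth factor Igf2 measured 290 and 304 in basal 9A1, 281 and 318 in basal 14B3, 902 and 680 in Matrigel 9A1, and 651 and 867 in Matrigel 14B3, with no overlap. Igf2 rose by 1.36 ± 0.14 log2 units (SE, adjusted p = 2.12e-05), and the binding protein Igfbp3 rose by 1.35 ± 0.20 log2 units (SE, adjusted p = 0.000296). The other Igf2 probe set was at 0.04 without a call.

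Interferon and antigen presentation genes gave 7 rises and 6 without a call among 13, with a median of 0.38. The RNA sensor Ifih1 measured 218 and 263 in basal 9A1, 241 and 301 in basal 14B3, 694 and 626 in Matrigel 9A1, and 694 and 581 in Matrigel 14B3. The cultures were apart, and it rose by 1.35 ± 0.12 log2 units (SE, adjusted p = 9.99e-06). The light chain B2m of class I molecules rose by 0.57 ± 0.10 log2 units (SE, adjusted p = 0.00104) and Irf7 rose by 0.86 ± 0.14 log2 units (SE, adjusted p = 0.000602). The interferon-induced Ifit1 and Oas1a were at 0.23 (adjusted p = 0.163) and 0.12 (adjusted p = 0.638). The calls of Irf1 at 0.46 and Irf9 at 0.38 ended without basal_14B3 replicate 1 or basal_9A1 replicate 1, with an adjusted p of up to 0.0595, and without basal_9A1 replicate 1, with an adjusted p of up to 0.0713, in that order. H2-D1 and H2-K1 rose by 1.52 and 0.73. Their calls ended when the mean of each gene's probe sets was used, and class I genes are close in sequence.

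Of 15 chemokines and cytokines 6 fell, 3 rose and 6 had no call, with a median of -0.03. Ccl9, a chemokine for myeloid cells, measured 1694 and 772 in basal 9A1, 1625 and 620 in basal 14B3, 149 and 151 in Matrigel 9A1, and 104 and 136 in Matrigel 14B3. Replicate 1 was far above replicate 2 in both basal pairs, and all Matrigel arrays were lower. Ccl9 fell by 3.01 ± 0.30 log2 units (SE, adjusted p = 1.64e-05). The neutrophil chemokine Cxcl5 measured 341 and 479 in basal 9A1, 47.6 and 46.6 in basal 14B3, 62 and 45.1 in Matrigel 9A1, and 39.7 and 32.8 in Matrigel 14B3. It was highest in basal 9A1 and low elsewhere. Il1rn, which blocks interleukin 1, rose by 1.63 ± 0.23 log2 units (SE, adjusted p = 0.000222), and exceeded the aggregates by 2.66 (adjusted p = 1.26e-05). Complement genes gave 4 rises and 1 fall among 11, with a median of 0.01. Factor B (Cfb) measured 121 and 202 in basal 9A1, 155 and 154 in basal 14B3, 634 and 880 in Matrigel 9A1, and 492 and 465 in Matrigel 14B3 and rose by 1.94 ± 0.17 log2 units (SE, adjusted p = 5.53e-06). C9, part of the membrane attack complex, measured 208 and 273 in basal 9A1, 263 and 333 in basal 14B3, 291 and 451 in Matrigel 9A1, and 2173 and 3032 in Matrigel 14B3, high only in Matrigel 14B3. The protease Masp1 fell by 0.57 ± 0.10 log2 units (SE, adjusted p = 0.00123).

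Cd109, a surface protein that binds TGF-beta (Entrez Gene 235505), belonged to none of these lists and was among the 12 largest falls. It measured 613 and 704 in basal 9A1, 724 and 407 in basal 14B3, 143 and 114 in Matrigel 9A1, and 60.1 and 71.9 in Matrigel 14B3. Matrigel 14B3 was lowest, and no Matrigel array reached a basal one. Cd109 fell by 2.71 ± 0.16 log2 units (SE, adjusted p = 2.76e-07), 6.53-fold lower.

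Both lines were also tested alone. In 9A1 alone 2203 genes passed (17.8%) and in 14B3 alone 2046 (16.5%). Of these 1363 passed in both in the same direction, 61.9% of the 9A1 calls and 66.6% of the 14B3 calls, and 5 in opposite directions. The changes of the lines correlated across genes with a Pearson r of 0.827 and a Spearman rho of 0.718. Genes are not independent replicates, each value rests on 2 against 2 arrays, and no p is given. A difference between the responses passed for 85 genes (0.686%), 42 higher and 43 lower in 14B3, against 165 with the replicate block. The count was 30 and 47 without basal_9A1 replicate 1 and 2, and 50 and 44 without basal_14B3 replicate 1 and 2. Of the 85, 32 had changes of opposite sign in the lines. Some of these hardly moved in either the 9A1 or the 14B3 line, such as Srgn at -0.03 in 9A1. Both Matrigel 9A1 arrays are labelled 10 days, but the Matrigel 14B3 pair is labelled 5 and 10 days. Line and days in Matrigel therefore cannot be fully told apart in these differences.

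**Figure D5:**
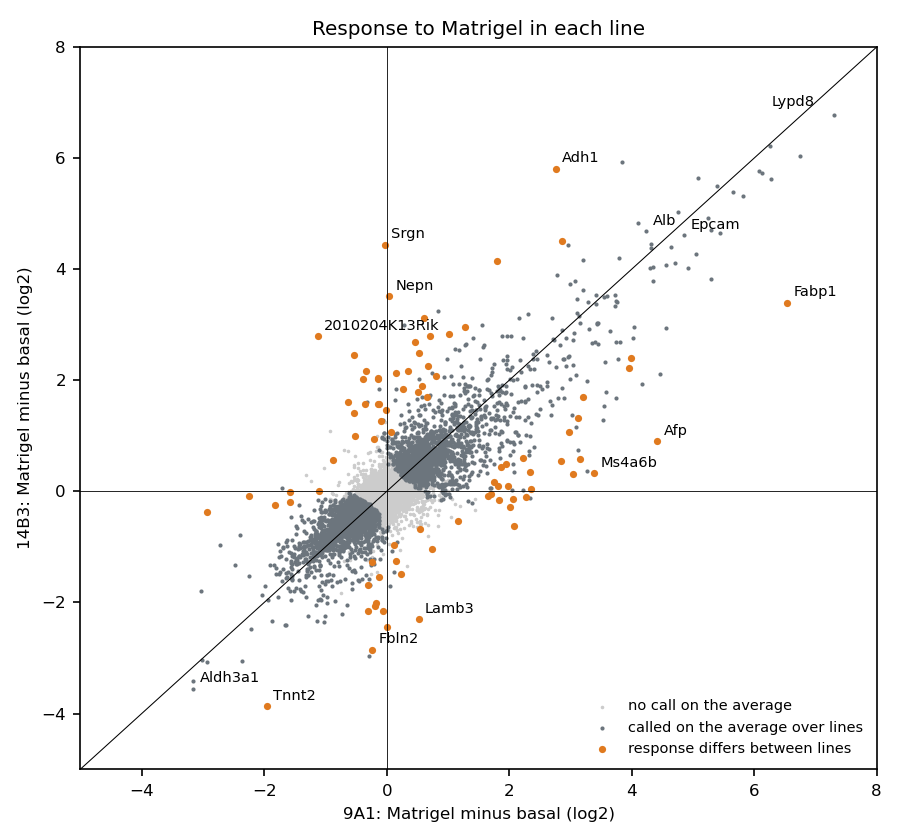
Matrigel minus basal change in log2 units for every gene in 9A1 (horizontal) and 14B3 (vertical), with the diagonal of equal response, light grey for genes with no call, dark grey for genes called on the average and orange for the 85 genes whose responses differed at an adjusted p below 0.05. Most genes lie along the diagonal, whereas Srgn sits at -0.03 in 9A1 and 4.44 in 14B3.

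The largest difference in favour of 14B3 was that of Srgn, the core protein of a granule proteoglycan. It measured 97.9 and 107 in basal 9A1, 117 and 122 in basal 14B3, 87.1 and 115 in Matrigel 9A1, and 2712 and 2483 in Matrigel 14B3. Both Matrigel 14B3 arrays stood far above the other 6. The response of 14B3 minus that of 9A1 was 4.47 ± 0.32 (SE, adjusted p = 5.93e-05). Nepn, a small leucine-rich matrix protein, measured 103 and 85.4 in basal 9A1, 76.1 and 84.9 in basal 14B3, 98.6 and 94.4 in Matrigel 9A1, and 784 and 1089 in Matrigel 14B3, again high only in Matrigel 14B3, with a difference of 3.49 ± 0.30 (SE, adjusted p = 0.000324). The gene 2010204K13Rik measured 949 and 808 in basal 9A1, 1007 and 864 in basal 14B3, 403 and 405 in Matrigel 9A1, and 6504 and 6361 in Matrigel 14B3, so it went down in 9A1 and up in 14B3, with a difference of 3.90 ± 0.28 (SE, adjusted p = 5.93e-05). Sox17, an endoderm factor of the duct system, measured 114 and 135 in basal 9A1, 524 and 576 in basal 14B3, 90.9 and 138 in Matrigel 9A1, and 2135 and 2329 in Matrigel 14B3. It was high in 14B3 in both cultures and highest in Matrigel, with a difference of 2.17 ± 0.27 (SE, adjusted p = 0.0038). For the complement gene C9 the difference was 2.51 ± 0.35 (SE, adjusted p = 0.00664).

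Ms4a6b, a four-pass membrane protein, was among those that rose more in 9A1. It measured 133 and 140 in basal 9A1, 155 and 149 in basal 14B3, 1606 and 1268 in Matrigel 9A1, and 199 and 183 in Matrigel 14B3, and the difference was -3.06 ± 0.20 (SE, adjusted p = 5.93e-05). The iron oxidase Heph differed by -2.58 ± 0.26 (SE, adjusted p = 0.00149), the desaturase Scd1 by -2.29 ± 0.31 (SE, adjusted p = 0.00652) and smooth muscle actin Acta2 by -1.90 ± 0.26 (SE, adjusted p = 0.00656). Fbln2 and Cldn6, which fell in 14B3, differed by -2.61 ± 0.31 (SE, adjusted p = 0.00334) and -2.44 ± 0.32 (SE, adjusted p = 0.00508). Cxcl5 and Cxcl1, which were higher in basal 9A1 than in basal 14B3 and lower in Matrigel 9A1, differed by 2.55 ± 0.27 (SE, adjusted p = 0.00158) and 2.18 ± 0.23 (SE, adjusted p = 0.00158). The named genes include the 4 largest differences in each direction, so the number of them with a difference is in part fixed by selection. Over all genes 0.686% passed. Among 27 listed or named genes with a line difference 13 kept it whichever array was left out, and all 27 kept it with the replicate block.

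The other 14 lost the call of a line difference without some array. The Afp difference was -3.52 ± 0.56 (SE, adjusted p = 0.014), and it ended without Matrigel_14B3 replicate 1, Matrigel_9A1 replicate 2, basal_14B3 replicate 1 or 2 or basal_9A1 replicate 1 or 2, with an adjusted p of up to 0.0605. That of Fabp1 was -3.14 ± 0.49 (SE, adjusted p = 0.0131), and it ended without Matrigel_14B3 replicate 1, Matrigel_9A1 replicate 2 or basal_9A1 replicate 1, with an adjusted p of up to 0.0703. Adh1 differed by 3.06 ± 0.49 (SE, adjusted p = 0.0143), which ended without Matrigel_14B3 replicate 2, basal_14B3 replicate 2 or basal_9A1 replicate 1 or 2, with an adjusted p of up to 0.0672. Cps1 differed by -1.91 ± 0.32 (SE, adjusted p = 0.0194), which ended without Matrigel_14B3 replicate 2, Matrigel_9A1 replicate 1 or 2, basal_14B3 replicate 2 or basal_9A1 replicate 1 or 2, with an adjusted p of up to 0.102. Tnnt2 differed by -1.90 ± 0.31 (SE, adjusted p = 0.0147), which ended without Matrigel_14B3 replicate 1, Matrigel_9A1 replicate 2, basal_14B3 replicate 1 or basal_9A1 replicate 1 or 2, with an adjusted p of up to 0.0675. Nid1 differed by -1.71 ± 0.29 (SE, adjusted p = 0.0193), which ended without Matrigel_14B3 replicate 2, Matrigel_9A1 replicate 1 or 2, basal_14B3 replicate 1 or basal_9A1 replicate 1, with an adjusted p of up to 0.104. For the pump Abcc2 the difference was -1.73 ± 0.28 (SE, adjusted p = 0.0148), which ended without Matrigel_9A1 replicate 1, basal_14B3 replicate 1 or 2 or basal_9A1 replicate 1 or 2, with an adjusted p of up to 0.0765. Tagln, a smooth muscle protein, differed by -1.75 ± 0.30 (SE, adjusted p = 0.0229), which ended without Matrigel_14B3 replicate 1, Matrigel_9A1 replicate 1, basal_14B3 replicate 1 or 2 or basal_9A1 replicate 1 or 2, with an adjusted p of up to 0.113. The laminin chain Lamb3 measured 777 and 865 in basal 9A1, 3255 and 3067 in basal 14B3, 1404 and 990 in Matrigel 9A1, and 777 and 529 in Matrigel 14B3, lower in Matrigel in 14B3 and higher in 9A1, and differed by -2.82 ± 0.55 (SE, adjusted p = 0.0433), which ended without Matrigel_14B3 replicate 1 or 2, Matrigel_9A1 replicate 1 or 2, basal_14B3 replicate 1 or 2 or basal_9A1 replicate 1 or 2, with an adjusted p of up to 0.178.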

How the data were processed

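Total RNA from each culture had been hybridised to Affymetrix mouse 430A arrays. The authors deposited 1 intensity per probe set and array on a linear scale, made with RMA in R 2.3.1 per the submitters' processing notes, and the array scanner files were not used here. RMA equalises the arrays' distributions, so a shift shared by most genes would not be seen. Of 22690 probe sets 20380 had 1 gene symbol in the platform annotation, 691 had several, 1555 none and 64 were controls. Each of 12393 genes took its brightest probe set. Of 84 named genes with several probe sets 0 had opposite calls, but in some another probe set had no call. That other probe set was at 0.19 for Pdx1, -0.26 for Notch1, -0.12 for Nid1, -0.2 for Fdps, 0.23 for Col3a1 and 0.03 for Cdh5. Hmgcs1 had 3 of 4 probe sets without a call and Ddr1 5 of 8. Their changes ran from 0.05 to 0.35 and from -0.15 to 0.6, in that order. Neither Upk3b probe set was called when every probe set was tested. Probe sets ran from 0.14 to 2.66 for Afp, -2.42 to -0.01 for Cryab, -1.09 to -0.05 for Timp2 and -1.27 to -0.06 for Cdt1.

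Log2 intensities of all 12 arrays were fitted as 6 group means (line by culture) with limma 3.58.1 in R 4.3.3, leaving 6 residual degrees of freedom. The tested contrast was Matrigel minus basal, averaged over the lines, with Benjamini-Hochberg adjustment over all genes at 0.05. On simulated data of 12393 genes for this contrast 48.8% of changes of 0.5 log2 units, 93.2% of 1 and 100% of 2 were recovered, and 3.97% of calls were false. The simulation changed a far smaller share of genes than the 28.4% called here and drew noise independently for each array. These shares therefore need not hold for the real arrays.

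Arrays of the same replicate number deviated together in each of 15 pairs of groups (r of 0.101 to 0.644). The main fit has no term for these numbers, so its SEs, p-values and counts leave this pairing out. A value from a fit with the numbers as a block stands beside each gene described whose call it changed. The same holds for each list count it moved by over 1.5 times. In Matrigel 14B3 the replicate number also stands for the labelled days, 5 and 10.

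Members and gene lists were chosen with earlier results of these data known. Named genes were the 12 largest rises and 12 largest falls (called, same sign in both lines, no overlap of arrays), up to 4 called members of largest change per list, fixed marker genes, the 4 largest line differences in each direction, and members of lists of up to 15 genes. Genes that the block added to a list's count, and the list members whose calls rest on single arrays, were named after their values were seen. Alternatives varied the normalization, pseudocount (50), probe set rule, dim gene filter, array weights, model, block and arrays left out.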

Additional observations from a re-analysis of the deposited data

Results flagged for a closer look

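A single array stood apart in 10 of 338 combinations of a named gene and a culture of 4 arrays, with a gap to its nearest neighbour that took up more of the range than the 95% critical value of Dixon's test. Chance marks about 1 group in 20 if the 4 arrays share the same level and spread. Each group here joins both lines, whose levels often differ, so that rate need not hold. Among basal arrays, the second 14B3 array was high for Lypd8 (intensity 119) and Krt18 (13456) and low for Fbp1 (156). The first basal 14B3 array was high for Pnliprp2 (75.4) and Dhcr7 (629) and low for Tagln (152). Basal 9A1 was low on its first array for Ttr (389) and on its second for Igfbp3 (293). Among Matrigel arrays, the first 14B3 array, the one labelled 5 days, was high for Nr1i2 (743), and the second 14B3 array was low for Dgat2 (3258).

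The response to Matrigel differed between the lines for 19 of 169 named genes, by limma's test of that difference. Over all genes 0.686% passed. The 4 largest differences in each direction were named because of this test, so the count of 19 is in part fixed by selection. In log2 units of 14B3 minus 9A1, the difference favoured 14B3 for Srgn (4.47), 2010204K13Rik (3.9), Nepn (3.49), Adh1 (3.06), Cxcl5 (2.55), C9 (2.51) and Sox17 (2.17). It favoured 9A1 for Afp (-3.52), Fabp1 (-3.14), Ms4a6b (-3.06), Lamb3 (-2.82), Fbln2 (-2.61), Heph (-2.58), Cps1 (-1.91), Tnnt2 (-1.9), Acta2 (-1.9), Tagln (-1.75), Abcc2 (-1.73) and Nid1 (-1.71). Adjusted p-values ran from 5.93e-05 to 0.0433, the highest for Lamb3.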

How the results depend on the processing

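Against 1743 genes higher and 1776 lower in Matrigel, a replicate block set per line gave 2003 and 2172 and ended no call among 558 listed or named genes, while adding 30. Each line alone gave fewer calls: 1104 higher in 14B3, and 1000 and 942 lower in 9A1 and 14B3. A change of at least 1 log2 unit was met by 492 higher and 255 lower genes, and counting every probe set gave 2888 lower. Leaving out 1 array gave 1403 to 1780 higher and 1189 to 1812 lower. The 85 genes with a line difference became 165 with the replicate block within line and 186 with a shared replicate block, 37 among genes above the median level, and 30 to 105 when 1 array was left out. The cause of these shifts was not tested, apart from fewer or more features or arrays entering.

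Of 265 called genes among those 558, 49 lost the call without at least 1 array. Of 4172 alternative values for 169 of these genes 3897 kept their direction and their side of the threshold, 230 lost the call, 28 gained it, 9 turned sign, and 8 of Itgb1 and Krt19, which had no call, changed sign without a call. The 9 turned sign in a single line. In 9A1 alone the log2 change was -1.12 for 2010204K13Rik, -0.12 for Arg1, -0.05 for Cdh5, 0.52 for Lamb3, 0.23 for Nid1, -0.15 for Sox17 and -0.03 for Srgn. In 14B3 alone it was -0.09 for Hmgcs1 and -0.04 for Tagln. With 2 arrays per line and culture, changes of 0.5 log2 units were often missed in a simulation that changed far fewer genes than were called here. Changes of genes near background may be understated. Gel and days in culture cannot be told apart, nor can line and days in Matrigel be fully told apart in the line differences.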
